A study of Mus musculus with 6 samples.

Results

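Macrophages that carried the transcript of the chemokine Cxcl9 were picked out of the CD45+ cells of mouse synovium in antigen-induced arthritis (AIA). A cell was a member if it held at least 2 UMIs (unique molecular identifiers, each standing for an RNA molecule of the cell) of Cxcl9, at least 1 of Fcgr1 and at least 1 of Csf1r, none of Lyve1, Cd163 or Cd209a, and fewer than 3 of Mki67 and Top2a together. Fcgr1 (the high-affinity IgG receptor) and Csf1r (the receptor of macrophage colony-stimulating factor) mark macrophages, Lyve1 and Cd163 mark resident macrophages, Cd209a marks monocyte-derived dendritic cells, and Mki67 and Top2a mark dividing cells. The cells were thus chosen by their own raw counts of these 8 genes, and no clustering was used. Of 32953 cells, 585 were members (1.78%, Wilson 95% interval 1.64% to 1.92%), here called Cxcl9 macrophages. They made up 12.2% (11.3% to 13.1%) of the 4813 cells that met every condition except that on Cxcl9.

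C57BL/6 mice of both groups were immunized under the skin with 10 μg methylated bovine serum albumin (mBSA) in complete Freund's adjuvant and challenged in the knee with 100 μg mBSA on day 21. From that day they received intraperitoneal vehicle (PBS, 2 samples) or 300 μg of the PEG-linked peptide PEPITEM (4 samples), and CD45+ cells were sorted from the digested joints on day 3 after challenge for 3′ single-cell RNA sequencing. All samples were immunized and challenged, so an arthritis-free joint is not among them. The deposited table pools the 6 samples, and the number from 1 to 6 at the end of each barcode is not tied to a treatment in the sources used here. Vehicle and PEPITEM were therefore not compared, and each number is treated as a library whose treatment is unknown. They cannot stand as replicates of either treatment, and no p-value is given.

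Cxcl9 encodes a chemokine that interferon-γ (IFNγ) induces. It binds the receptor CXCR3 and draws activated T cells and natural killer (NK) cells, which are themselves the main makers of IFNγ. Macrophages that sense IFNγ also raise guanylate-binding proteins, MHC class II and the immunoproteasome, and type I interferons raise the antiviral genes. These sets are not taken here as exclusive to either interferon, and which interferon acted on the cells was not tested.

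The number of Cxcl9 macrophages differed widely between libraries. Libraries 1 to 6 held 76, 6, 145, 128, 171 and 59 of them. As a share of all cells these were 2.27%, 0.103%, 4.97%, 3.20%, 1.83% and 0.783%. As a share of the cells meeting the rest of the rule they were 9.71%, 0.976%, 16.7%, 18.9%, 17.0% and 6.83%. Library 2 had the lowest value of the second share. Its 95% interval of 0.448% to 2.11% lay below those of the other 5 libraries, the next of which began at 5.33%. Libraries 3, 4 and 5 had overlapping intervals. These intervals cover counting error within a library and not the spread between samples. Since the 2 vehicle and 4 PEPITEM samples cannot be matched to the numbers, this spread and treatment cannot be told apart. Every member value given below for library 2 rests on 6 cells and 178174 UMIs, and a gene called below had to move the same way in these 6 cells. The libraries held 47273569 to 123367661 UMIs, and the members 14457345 in all. Of the barcodes, 138 occurred in more than 1 library, and 5 members carried such a barcode.

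**Figure D1:**
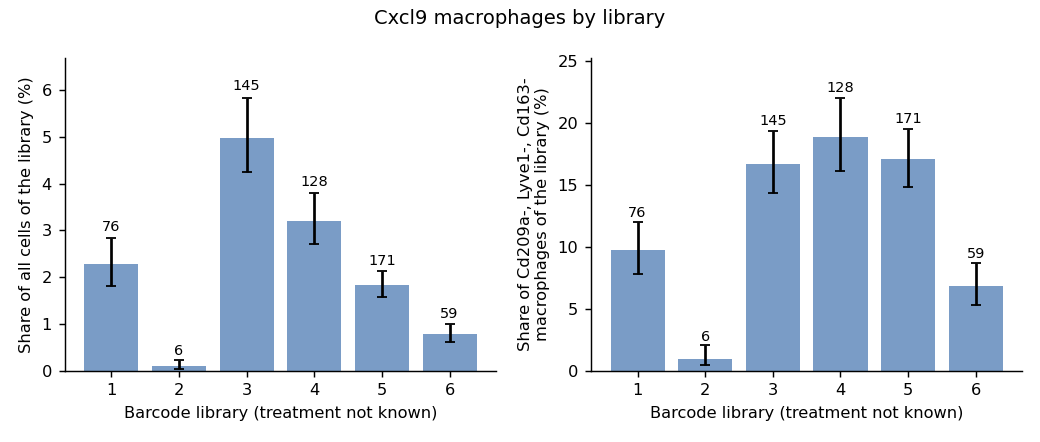
Cxcl9 macrophages in each of the 6 barcode libraries, as a share of all cells (left panel, %) and of the cells that met the rule apart from Cxcl9 (right panel, %); bars are shares, error bars Wilson 95% intervals and the numbers on them cell counts. The share of eligible cells was 0.976% in library 2 and between 6.83% and 18.9% in the other 5.

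Cxcl9 itself chose the cells, so its level is a description. Members held a median of 16 Cxcl9 UMIs (quartiles 6 and 55, highest 348). At the threshold, 62 members held 2 UMIs, and 139 cells just outside held 1. Of the 933 cells in the whole series with at least 2 Cxcl9 UMIs, 159 were lost for want of Fcgr1, 33 for Csf1r, 75 for carrying Lyve1 or Cd163, 45 for Cd209a and 36 as dividing cells, when the conditions were applied in that order. Members carried 62.9% of all 38256 Cxcl9 UMIs. As the background in cells that should lack the gene, at least 2 Cxcl9 UMIs were found in 0.105% of B cells, 0.123% of neutrophils and 0.293% of T and NK cells (median depths 5927, 8298 and 15562 UMIs), against 12.2% of the eligible macrophages (18357 UMIs). Whether these few UMIs came from free RNA, doublets or the cells themselves was not tested. Cxcl9 was above 0 in 1229 cells of the series, and in 162 others a 0 was stored explicitly, read here as an entry that the authors' correction for free RNA had emptied.

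The marker genes of the label, interferon-type macrophage, were chosen with earlier results of these data known. Their levels describe the members and are no test of the label. Cxcl10, Gbp2, Ly6i and Slamf8, the marker genes that the rule did not use, had a UMI in 56.9%, 94.5%, 73.2% and 85.3% of members. In the same macrophages without Cxcl9 the shares were 21.3%, 50.2%, 24.0% and 30.3%, at a lower median depth (17856 against 21478 UMIs). Of the 13 macrophage markers the rule required 2, Fcgr1 and Csf1r, and the 11 others each had a UMI somewhere in the pooled members. Adgre1 (the F4/80 antigen) was in 83.1% of members and 85.9% of Cxcl9 0 cells, C1qa in 58.8% and 43.1%, and Mertk in 29.2% and 24.2%. The 13 markers summed to 17178 CPM (UMIs of a gene per 1000000 UMIs of the pooled cells) in members and 20154 CPM in Cxcl9 0 cells. Of the 11 outside the rule, 3 had a fold above 1. The 8 T and NK cell markers summed to 13.3 CPM in members, with Gzma at 0 and Cd3d highest at 3.18 CPM, and the 5 fibroblast markers summed to 2.01 CPM. The 9 dendritic cell markers summed to 29.7 CPM in members and 18.8 CPM in the same macrophages without Cxcl9, with Siglech and, by the rule, Cd209a at 0 in members. Of these sums Ccr7, a receptor that guides migrating dendritic cells, took 15.8 and 4.96 CPM (3.19-fold, higher in 5 of 6 libraries and so not called), with a UMI in 3.93% of members and 2.10% of Cxcl9 0 cells. The 6 B cell markers summed to 84.7 CPM, with Ighm highest at 55.3 CPM. The 10 neutrophil markers summed to 49825 CPM in members and to 46294 CPM in the same macrophages without Cxcl9, with S100a9 highest at 21427 CPM in members. Over libraries 1 to 6 the sum was 53250, 95856, 32376, 34855, 75302 and 54941 CPM in members and 45703, 78311, 30768, 29212, 44317 and 44975 CPM in Cxcl9 0 macrophages. It was highest in library 2 in both populations. When cells with at least 2 UMIs of Retnlg (neutrophils), Cd3e, Cd79a or Col1a1 were left out, 322 members remained. In the comparison described next 82 genes were then higher, 61 of them among the 87 (1.18% of 7358) called with all cells, and 125 were lower, 49 of them among the 66 called with all cells. Gbp2 and Cxcl10 were then 5.62- and 6.85-fold higher against 4.79- and 5.71-fold. The 7 cell cycle genes, 2 of them used by the rule, summed to 73.3 CPM in members and 91.6 CPM in Cxcl9 0 cells.

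Members were compared with the 4089 macrophages that met the same rule but held no Cxcl9 UMI. The median depth was 21478 UMIs in members and 17856 UMIs in the comparison cells. The libraries entered both in unequal parts. Libraries 1 to 6 gave 76, 6, 145, 128, 171 and 59 members and 684, 608, 682, 520, 802 and 793 comparison cells. Pooled folds therefore also carry differences between libraries, and Gbp2 was 4.79-fold with all libraries and 4.03-fold without library 2. A gene was called higher when its pooled CPM was at least 2-fold and it was higher in 6 of 6 libraries, and lower at the inverse. Of 7358 genes with a mean of at least 10 CPM over the 2 populations, 87 were higher (1.18%) and 66 lower (0.897%), with a median log2 fold of -0.05 over all of them. At any size of fold, 39.9% of the genes were above 1 in the pool, 6.9% were higher in 6 of 6 libraries and 14% lower in 6 of 6. The contrast is that of the rule, so the calls carry no test and describe what accompanies Cxcl9. Where library values are said below not to overlap, the share of all genes without overlap is not given. Such statements describe the genes named and are no test either. Against the 2103 comparison cells that also had a C1q UMI, the complement component of maturing macrophages, 69 of 7364 genes were higher (0.937%) and 107 lower (1.45%).

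Cxcl10, which shares the receptor CXCR3 and lies next to Cxcl9 on chromosome 5 (GRCm38, Cxcl9 at chr5:92321347-92328079 and Cxcl10 at chr5:92346638-92348889, both on the minus strand), was higher in members. Its level in libraries 1 to 6 was 759, 1442, 552, 1239, 891 and 439 CPM in members and 262, 60.2, 177, 162, 126 and 74.4 CPM in the Cxcl9 0 cells. The highest Cxcl9 0 library lay below the lowest member library. In the pool it was 821 CPM (Poisson 95% interval 806 to 836) against 144 CPM (141 to 146), a 5.71-fold difference. With each cell thinned to 5000 UMIs, 42.9% of members and 13.6% of comparison cells held a Cxcl10 UMI.

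Gbp2, a guanylate-binding protein of cell-autonomous defence, was at 517, 1470, 706, 678, 596 and 702 CPM in members of libraries 1 to 6 and at 149, 27.1, 272, 116, 149 and 102 CPM in Cxcl9 0 cells. The ranges did not overlap, and the pooled levels were 654 and 137 CPM (4.79-fold). In Cxcl9 0 cells Gbp2 was lowest in library 2, the library with the fewest members. Slamf8, a receptor of the SLAM family that macrophages carry, was at 110, 84.2, 109, 187, 159 and 149 CPM in members and 34.4, 9.04, 45.9, 33.02, 35.1 and 23.1 CPM in Cxcl9 0 cells, again without overlap (4.77-fold). Ly6i, a member of the Ly6 family of surface proteins, was at 271, 50.5, 219, 253, 341 and 266 CPM against 60.6, 7.30, 40.3, 35.3, 53.0 and 19.8 CPM (7.44-fold). For Ly6i the groups overlapped, since the members of library 2 lay below the Cxcl9 0 cells of libraries 1 and 5. Fcgr1, which both populations had to carry, was at 298 CPM in members and 287 CPM in Cxcl9 0 cells.

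**Figure D2:**
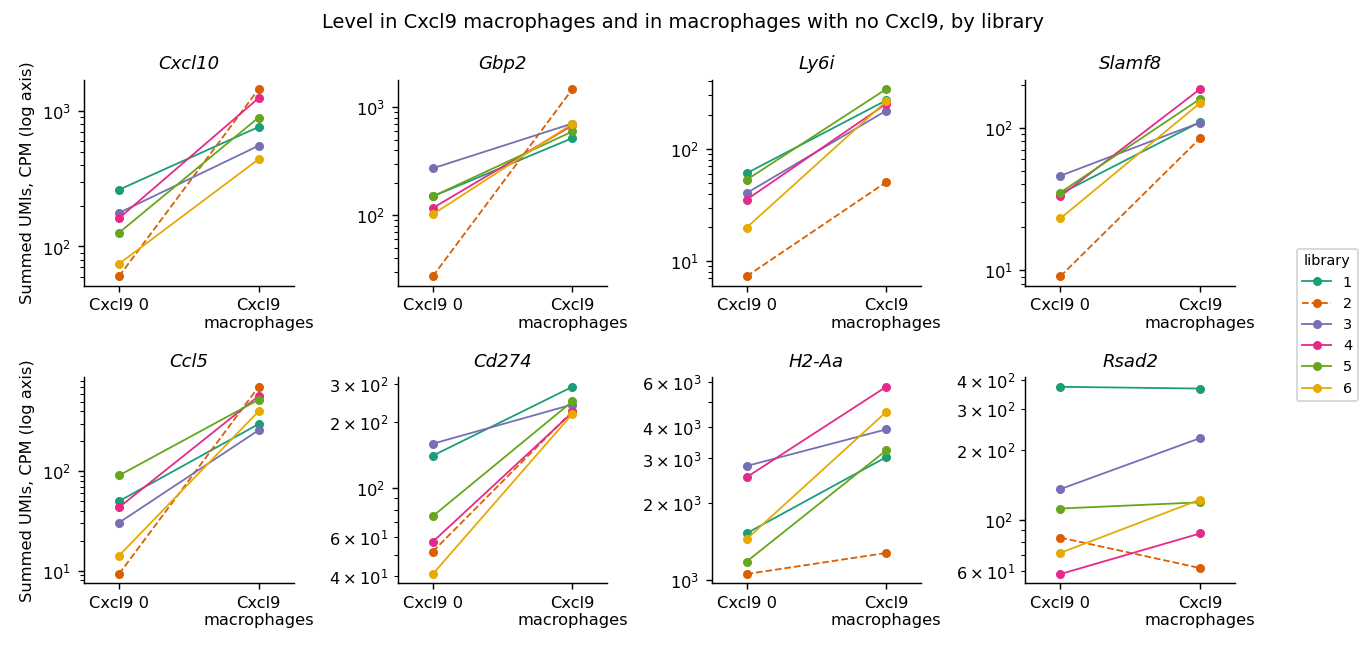
Level of 8 genes (summed UMIs in CPM, log axis) in macrophages without Cxcl9 and in Cxcl9 macrophages, with a line for each library and library 2 (6 members) dashed. For Cxcl10, Gbp2, Slamf8, Ccl5 and the other rising genes every line went up, whereas Rsad2, a gene of the type I interferon response, was 176 CPM in members and 145 CPM in the pooled Cxcl9 0 cells with lines in both directions.

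Promoters of 5 of these genes are shown because the factors downstream of the interferon receptors bind short motifs near the start sites. The windows (RefSeq, GRCm38.p6, 250 bases before to 50 after the start, 5′ to 3′ along the gene) were searched on both strands for TTCNNNGAA, the gamma-activated site of IFNγ-induced genes, and for GAAA followed after any 2 bases by a second GAAA, the interferon-stimulated response element, and capitals mark the matches, none of which overlap. A match on the opposite strand reads as its complement, with TTTC in place of GAAA. They are Cxcl9 (chr5:92328030-92328329, minus strand), Cxcl10 (chr5:92348840-92349139, minus strand), Gbp2 (chr3:142620413-142620712, plus strand), Gbp5 (chr3:142496684-142496983, plus strand) and Slamf8 (chr1:172590519-172590818, minus strand).
Cxcl9: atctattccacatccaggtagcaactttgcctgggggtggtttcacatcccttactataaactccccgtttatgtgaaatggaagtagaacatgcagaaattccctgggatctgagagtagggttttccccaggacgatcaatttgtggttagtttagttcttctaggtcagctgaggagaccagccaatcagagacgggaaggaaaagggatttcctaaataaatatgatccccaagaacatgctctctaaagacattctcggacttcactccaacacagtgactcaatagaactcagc
Cxcl10: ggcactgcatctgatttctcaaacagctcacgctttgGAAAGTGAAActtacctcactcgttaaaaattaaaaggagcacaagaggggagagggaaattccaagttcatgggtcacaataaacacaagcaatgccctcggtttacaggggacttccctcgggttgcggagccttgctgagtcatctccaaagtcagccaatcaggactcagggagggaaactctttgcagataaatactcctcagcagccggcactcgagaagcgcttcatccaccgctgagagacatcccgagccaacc
Gbp2: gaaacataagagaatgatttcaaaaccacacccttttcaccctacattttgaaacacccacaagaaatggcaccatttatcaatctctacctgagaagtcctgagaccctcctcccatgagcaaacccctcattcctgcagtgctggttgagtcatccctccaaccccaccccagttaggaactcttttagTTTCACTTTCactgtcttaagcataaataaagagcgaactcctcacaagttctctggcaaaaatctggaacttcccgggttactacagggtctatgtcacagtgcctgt
Gbp5: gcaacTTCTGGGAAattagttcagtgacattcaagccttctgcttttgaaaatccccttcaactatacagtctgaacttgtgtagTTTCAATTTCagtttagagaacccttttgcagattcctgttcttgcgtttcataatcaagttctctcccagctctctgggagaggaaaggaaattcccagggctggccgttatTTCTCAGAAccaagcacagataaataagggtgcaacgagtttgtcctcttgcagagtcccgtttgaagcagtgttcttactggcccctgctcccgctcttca
Slamf8: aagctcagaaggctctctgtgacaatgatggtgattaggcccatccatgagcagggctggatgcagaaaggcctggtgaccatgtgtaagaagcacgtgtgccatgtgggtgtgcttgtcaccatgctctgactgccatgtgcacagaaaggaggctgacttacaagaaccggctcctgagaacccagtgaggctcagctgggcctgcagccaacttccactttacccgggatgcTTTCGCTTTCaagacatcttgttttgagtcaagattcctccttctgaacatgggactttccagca
Cxcl10, Gbp2, Gbp5 and Slamf8 each held 1 match to the response element, starting at -213, -59, -165 and -15 from the start site, and Gbp5 also held 2 gamma-activated sites. The window of Cxcl9 held neither set of letters. Windows of further genes were searched and are not printed. Those of Cd274, Psmb9 and Tap1 held neither. Those of Fcgr1 and Serpina3g held 1 gamma-activated site and no response element, as did 1 window of Irf1, while another held neither. The window of Socs1 held 2 response elements. Of 32851 mouse promoters of this length, 8.30% held a gamma-activated site and 3.44% a response element. For the 78 promoters of 61 of the 87 higher genes, which are those found in the table, the shares were 10.3% and 12.8%, beside 6.53% and 3.39% of the promoters of all genes compared. A match is a description of letters and not a binding site, and alternative promoters of a gene were counted separately. Ly6i, Gbp4 and Ccl5 were not matched.

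Among the interferon-induced GTPases, Gbp2 included, which attack the vacuoles of intracellular microbes, 9 of the 11 at or above 10 CPM were higher and none lower, and the remaining 2, Irgm1 (1.76-fold) and Irgm2 (1.68-fold), were also above 1 in 6 of 6 libraries. The median log2 fold of the list was 1.30, beside -0.05 for all genes, of which 1.18% were higher. Gbp4 was 5.04-fold higher, Iigp1 5.03-fold, Gbp5 4.96-fold and Gbp8 3.57-fold, and Gbp3, Gbp7, Gbp9 and Igtp were 2.38- to 2.46-fold higher. Summed over the 15 genes of the list, the level in libraries 1 to 6 was 1318, 2329, 1633, 1826, 1479 and 1571 CPM in members and 549, 126, 760, 502, 491 and 364 CPM in Cxcl9 0 cells, with no overlap. The genes of this family resemble each other, and 3′ reads may have been shared among them.

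Among the interferon receptor and signalling genes, Socs1, an inhibitor that interferon induces, was called. It was at 61.3, 123, 69.3, 83.6, 65.3 and 64.95 CPM in members of libraries 1 to 6 and 25.4, 7.30, 31.6, 20.1, 23.7 and 13.9 CPM in Cxcl9 0 cells (70.6 against 20.3 CPM, 3.47-fold). The lowest member library lay above the highest comparison library. Irf8 (1.99-fold), Irf1 (1.68-fold) and Jak2 (1.48-fold) were above 1 in 6 of 6 libraries without reaching 2-fold. Against the Cxcl9 0 cells with C1q, Irf8 was called higher, as was Socs1. The receptor genes were near the comparison level, with Ifngr1 at 0.785-fold, Ifngr2 at 1.07-fold, Ifnar1 at 1.17-fold and Ifnar2 at 0.990-fold. Stat2 and Irf9, transcription factors of the type I response, were at 1.02- and 0.913-fold.

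Antiviral genes of the type I interferon list were not called in either direction. Of 15 at or above 10 CPM, 0 were higher and 0 lower, and their median log2 fold was -0.04, beside -0.05 for all genes. Isg15, a ubiquitin-like modifier, was the gene above 1 in 6 of 6 libraries (515 against 311 CPM, 1.66-fold). Rsad2 (1.21-fold), Irf7 (0.962-fold), Ifit1 (0.937-fold) and Mx1 (0.874-fold) went in different directions between libraries. The sum of the list in members was 3172, 1308, 1412, 1463, 1417 and 1047 CPM in libraries 1 to 6, and in Cxcl9 0 cells 3239, 742, 1066, 990, 1291 and 961 CPM. Library 1 was highest in both populations, and in this library the sums of members and of Cxcl9 0 cells differed little, whereas its GTPase sum was 1318 against 549 CPM. In each of the other libraries the type I sum was higher in members, and in the pool it was 1639 against 1416 CPM. Ifnb1 had no UMI in members, and Mx2 was not found in the table.

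For MHC class II, which presents antigen to CD4+ T cells, 6 of 7 genes were higher with a median log2 fold of 1.22. Of all genes compared, 1.18% were higher. H2-Aa was at 3036, 1280, 3898, 5723, 3227 and 4560 CPM in members of libraries 1 to 6 and 1528, 1058, 2803, 2533, 1184 and 1450 CPM in Cxcl9 0 cells (2.33-fold in the pool). Library 2 had the lowest member value, within the range of the Cxcl9 0 cells, and the smallest rise. Cd74 (the invariant chain, 2.20-fold), H2-Ab1 (2.47-fold), H2-DMb1 (2.37-fold) and Ciita, the transactivator of the class (30.8 against 13.7 CPM, 2.26-fold), were called with H2-DMa, and H2-Eb1 (2.53-fold) was not because it was lower in the members of library 2. Against the Cxcl9 0 cells with C1q these folds were smaller, with H2-Aa at 1.69-fold, and only H2-DMb1 of the 7 was called. The dendritic cell marker Ccr7 was also higher in the pool, as given above, and its part in the MHC class II and checkpoint results was not tested.

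In the class I pathway, 17 of 17 genes had a fold above 1 (39.9% of all genes) and 15 were higher in 6 of 6 libraries (6.9% of all genes), with a median log2 fold of 0.66, but 3 reached 2-fold: Psme2 (2.12-fold), an activator of the proteasome, Tap2 (2.00-fold), a subunit of the peptide transporter, and H2-Q6 (2.24-fold). Against the Cxcl9 0 cells with C1q, Psme2 alone of these was called, with Tap2 at 1.87-fold and H2-Q6 at 1.95-fold. The immunoproteasome subunits Psmb8, Psmb9 and Psmb10 were 1.78-, 1.75- and 1.74-fold, and B2m, the shared light chain, was 1.30-fold. H2-Q6 and H2-Q7 are near copies, so their split is uncertain.

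Among 9 costimulatory and checkpoint genes, 3 were higher, beside 1.18% of all genes compared. Cd274, which encodes the checkpoint ligand PD-L1, was at 290, 225, 241, 222, 249 and 218 CPM in members of libraries 1 to 6 and 141, 51.6, 160, 57.1, 74.7 and 40.8 CPM in Cxcl9 0 cells. The groups did not overlap, and the pooled fold was 2.72. Cd40, the receptor for help from T cells, was 2.53-fold, and Slamf8 is given above. Pdcd1lg2, which encodes PD-L2, was 52.8 against 7.35 CPM (7.18-fold), with a UMI in 38.97% of members and 8.61% of Cxcl9 0 cells, but it was not called because the 6 members of library 2 held 1 UMI. Cd86 (1.20-fold) and Cd80 (1.26-fold) were below the 2-fold limit, and Vsir, a checkpoint receptor, was 0.698-fold and lower in 6 of 6 libraries.

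**Figure D3:**
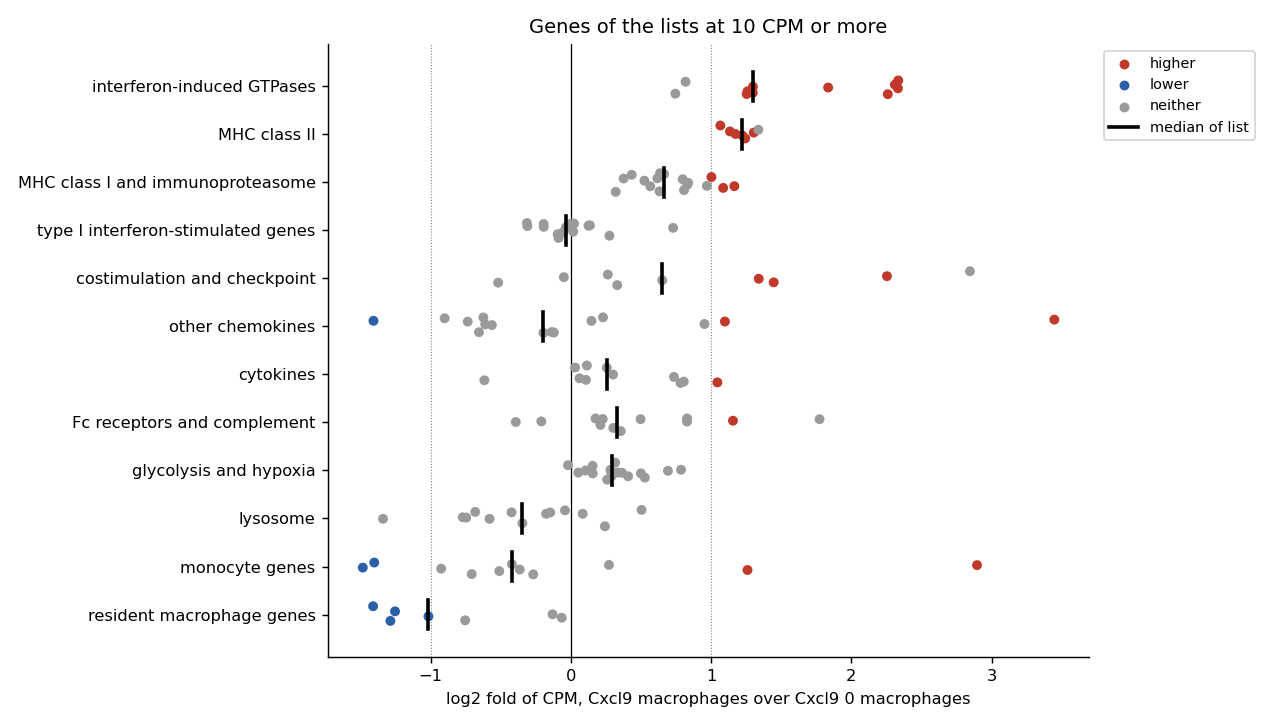
log2 fold of pooled CPM, Cxcl9 macrophages over Cxcl9 0 macrophages, for each gene at or above 10 CPM in 12 of the gene lists; points are genes, coloured by call, black bars list medians and dotted lines 2-fold. The GTPases (median 1.30) and MHC class II (1.22) sat to the right of 0, the type I interferon list at -0.04 and the resident macrophage list at -1.02.

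Of 15 further chemokines, 2 were higher and 1 lower, beside 1.18% and 0.897% of all genes compared. Ccl5, which recruits T cells and monocytes, was at 298, 707, 259, 571, 525 and 401 CPM in members of libraries 1 to 6 and 49.98, 9.25, 30.4, 43.3, 90.8 and 14.1 CPM in Cxcl9 0 cells. The lowest member library was above the highest comparison library, and the pooled fold was 10.9. A Ccl5 UMI was present in 47.2% of members and 7.73% of Cxcl9 0 cells. Cxcl16, the ligand of CXCR6, was 2.14-fold, and 1.51-fold and not called against the Cxcl9 0 cells with C1q. Pf4 (platelet factor 4) was lower at 156 against 415 CPM (0.377-fold). Of the monocyte attractants, Ccl2 (0.677-fold) and Ccl7 (0.649-fold) were lower in 6 of 6 libraries without meeting the limit, Ccl8 was 1.94-fold and higher in 4 of 6, and Ccl12 was 1.17-fold and higher in 2 of 6. Of the neutrophil attractants, Cxcl1 was 0.635-fold and lower in 6 of 6, Cxcl3 was 0.601-fold and lower in 5 of 6, and Cxcl2 was 0.92-fold. Against the Cxcl9 0 cells with C1q, Cxcl1 (0.485-fold) and Ccl7 (0.479-fold) were called lower with Pf4.

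Of 11 cytokine genes, 1 was higher, beside 1.18% of all genes compared. Il1rn, the antagonist of the interleukin-1 receptor, was 472 against 229 CPM (2.06-fold), a call lost against the Cxcl9 0 cells with C1q (1.67-fold). Il1b was 3294 against 1980 CPM (1.66-fold, higher in 6 of 6 libraries). Tnf (1.23-fold), Osm (1.08-fold), Il15 (1.08-fold), Il18 (1.02-fold) and Il10 (0.652-fold) were not called.

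Nos2, which makes nitric oxide from arginine and is a textbook mark of macrophages activated by IFNγ, was found in few cells of either population. It was at 38.9, 0, 22.8, 50.9, 27.8 and 25.5 CPM in members of libraries 1 to 6 and 1.12, 0.556, 6.94, 1.13, 3.83 and 2.08 CPM in Cxcl9 0 cells. It was above the comparison in each library but 2, where the 6 members held none, and so it was not called (32.6 against 2.64 CPM, 12.3-fold). A Nos2 UMI was found in 77 of 585 members (13.2%) and 58 of 4089 Cxcl9 0 cells (1.42%). At 5000 UMIs a cell the shares were 7.72% and 0.546%, and 84.4% of the 45 Nos2-positive members (Wilson interval 71.2% to 92.3%) also held a Ly6c2 UMI, beside 73.8% (69.9% to 77.3%) of the 538 others, with overlapping intervals.

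Ass1, which remakes arginine from citrulline, was 128 against 44.7 CPM (2.87-fold), and Sod2, the mitochondrial superoxide dismutase, was 407 against 131 CPM (3.12-fold). Hmox1, which degrades haem, was lower at 68.3 against 148 CPM (0.462-fold). Irg1, now named Acod1, the maker of itaconate, was 1.24-fold. Ido1 had no UMI in members, whose floor of 3 UMIs is 0.208 CPM. Of 12 Fc receptor and complement genes, C3 alone was called (2.23-fold), while Cfb was 3.42-fold but lower in 1 library. Of all genes compared, 1.18% were higher. Fcgr2b, the inhibitory receptor, was 1.78-fold and Fcgr4 1.77-fold, both in 6 of 6 libraries. Of 10 cell death and inflammasome genes 0 were called, with Fas (1.84-fold), Zbp1 (1.61-fold) and Gsdmd (1.53-fold) above 1 in 6 of 6.

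The leading genes of the comparison lay largely outside the lists. Serpina3g, a serine protease inhibitor, was at 57.4, 50.5, 55.6, 137, 91.7 and 117 CPM in members of libraries 1 to 6 and 6.05, 0.626, 7.08, 7.22, 10.95 and 4.02 CPM in Cxcl9 0 cells, and had the highest fold of the called genes after Cxcl9 itself, 15.2. Procr, the endothelial protein C receptor, was 60.5 against 4.57 CPM (13.2-fold). Neither overlapped between the groups. Cnn3 (6.53-fold), Inhba (the activin A subunit, 5.44-fold), the long noncoding RNA AW112010 (642 against 130 CPM, 4.94-fold), the arginine transporter Slc7a2 (4.66-fold), Fam26f (4.36-fold), the uridine phosphorylase Upp1 (4.17-fold), the transcription factor Batf2 (4.07-fold), Scimp (3.86-fold), Pla2g16 (3.76-fold), Tma16 (4.29-fold) and the granzyme inhibitor Serpinb9 (3.54-fold) followed. Bcl2a1a (6.22-fold), Bcl2a1d (4.40-fold) and Bcl2a1b (4.05-fold), copies of a survival gene of the BCL2 family, were all called. Against the cells with C1q, Bcl2a1b was higher in 5 of 6 libraries and not called. Reads of these near-identical genes may have been divided among them.

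Fn1 (fibronectin) was at 424, 825, 890, 362, 299 and 600 CPM in members of libraries 1 to 6 and 924, 2026, 1873, 1021, 1085 and 1328 CPM in Cxcl9 0 cells. No member library reached the lowest comparison library, and the pooled fold was 0.379. F13a1, the factor XIII subunit that monocytes make, was 214 against 598 CPM (0.358-fold), with member libraries at 101 to 366 CPM and the others at 418 to 758 CPM. Spp1 (osteopontin) was 342 against 1016 CPM (0.337-fold), and here the libraries overlapped, since the members of library 1 were at 807 CPM and the Cxcl9 0 cells of library 5 at 347 CPM. Among the called genes the lowest folds were those of Hpgd, which breaks down prostaglandins (0.193-fold), Ighm (0.198-fold), Fcrls (0.20-fold), Syngr1 (0.208-fold) and Pmp22 (0.214-fold), followed by Cav1 (caveolin-1, 0.273-fold), Itga6 (0.274-fold), Pparg, the lipid-sensing nuclear receptor (12.8 against 46.5 CPM, 0.275-fold), the heat shock genes Hspa1b (0.278-fold) and Hspa1a (0.28-fold), Cd300lg (0.328-fold), Serpinb6a (0.339-fold), Rnase4 (0.345-fold) and Cd109 (0.355-fold). Against Cxcl9 0 cells with C1q, Ighm (0.644-fold), Cd300lg (0.626-fold), Hspa1a (0.582-fold) and Hspa1b (0.53-fold) did not reach the limit. Igkc, an immunoglobulin light chain, had a lower fold still (13.1 against 469 CPM, 0.0279-fold) but was higher in 1 library and not called. The B cell markers summed to 770 CPM in Cxcl9 0 cells, and 10 of these cells held 37742 of the 38758 UMIs of Igkc.

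Of the monocyte genes, 2 of 11 were higher (Ly6i and Ly6a, the latter 2.39-fold, and 1.75-fold and not called against the cells with C1q) and 2 lower (F13a1 and Fn1). Of all genes compared, 1.18% were higher and 0.897% lower. Ly6c2, the inflammatory monocyte marker, was 763 against 982 CPM (0.777-fold), and Ccr2, which brings monocytes into tissue, was 415 against 591 CPM (0.702-fold, lower in 6 of 6 libraries). A Ly6c2 UMI was held by 88.0% of members and 80.3% of Cxcl9 0 cells, and a Ccr2 UMI by 93.8% and 93.4%, without correction for the greater depth of members. Of the 11 resident macrophage genes outside the rule, 7 were at or above 10 CPM, of which 4 were lower and 0 higher (median log2 fold -1.02): Folr2, a folate receptor (17.2 against 41.9 CPM), Trem2, a lipid receptor (0.419-fold), Cx3cr1 (0.495-fold) and Gas6 (0.376-fold). Mrc1, the mannose receptor, was 0.913-fold and Apoe 0.645-fold. Of the 17 glycolysis and hypoxia genes, 16 were above 1 and 10 in 6 of 6 libraries, beside 39.9% and 6.9% of all genes, but none reached 2-fold (median log2 fold 0.29). The highest was Pfkp, a phosphofructokinase (1.72-fold). The 13 lysosomal genes had 0 calls and a median log2 fold of -0.35, with Ctsl (0.586-fold), Ctsd (0.596-fold) and Lgmn (0.623-fold) lower in 6 of 6 libraries and Ctsz (1.42-fold) and Ctsc (1.18-fold) higher in 6 of 6. Against the Cxcl9 0 cells with C1q, 4 of the 13 were called lower, namely Ctsb, Ctsd, Ctsl and Lgmn, and the median was -0.58.

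Levels were followed along the number of Cxcl9 UMIs per cell, which the rule also uses. The median Cxcl9 count of a member was 9, 33.5, 12, 48.5, 16 and 11 UMIs in libraries 1 to 6, and library 2, with 6 members, lay below library 4 alone. Members numbered 62 at 2 UMIs, 80 at 3 to 5, 94 at 6 to 10 and 349 above 10. Gbp2 was at 137, 279, 348, 390, 482 and 810 CPM in cells with 0, 1, 2, 3 to 5, 6 to 10 and over 10 Cxcl9 UMIs, so that cells just outside the rule sat between the groups. Serpina3g went from 5.85 and 23.7 CPM at 0 and 1 to 124 CPM above 10, with 48.2 CPM at 2 and 20.2 CPM at 3 to 5. H2-Aa was already 3558 CPM at 1 UMI and 4183 CPM above 10. Isg15 was 311, 378, 359, 458, 514 and 554 CPM, and Irf7 was 154, 165, 138, 148, 177 and 142 CPM with no order. Fn1 went from 1392 CPM at 0 to 672 at 1 and 499.9 CPM above 10. Spp1 was 1016, 554, 373, 733, 344 and 248 CPM. The classes drew differently on the libraries: library 2 gave 608 of the 4089 cells at 0 UMIs and 1 of the 139 at 1 UMI, library 3 gave 682 and 42, and library 4 gave 97 of the 349 above 10. As the mean of the 5 libraries with cells in every class (all but library 2), each weighted equally, Gbp2 was 158, 276, 348, 382, 476 and 784 CPM. H2-Aa was 1900, 3485, 3902, 3834, 4379 and 4193 CPM. In each of these 5 libraries both genes were higher at 1 UMI than at 0. Above 10 UMIs, Gbp2 was higher than at 1 UMI in 5 and H2-Aa in 4 of the 5.

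**Figure D4:**
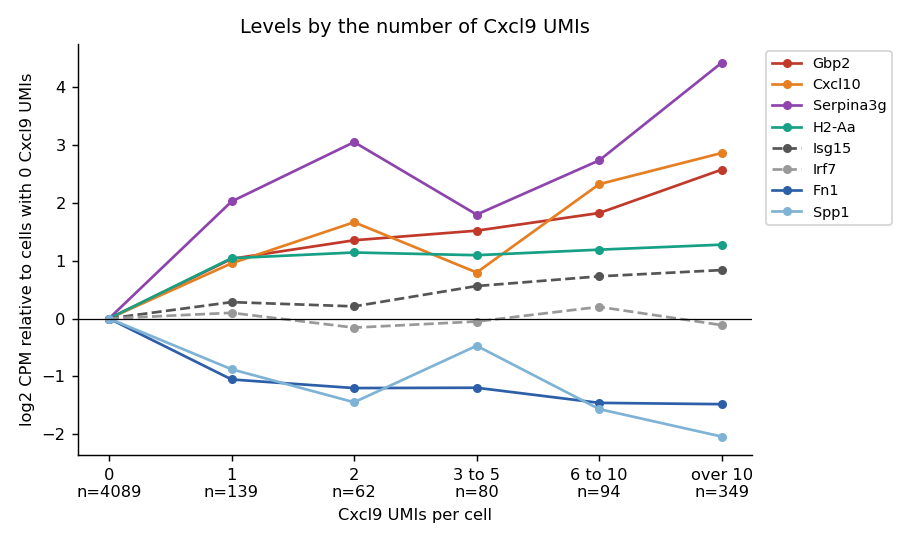
log2 CPM of 8 genes relative to cells with no Cxcl9 UMI, by the number of Cxcl9 UMIs per cell; the first 2 classes lie outside the rule and n is the number of cells, pooled over libraries whose shares differ between classes. Gbp2 was higher in each class than in the class before (137 to 810 CPM), H2-Aa went from 1730 CPM at 0 UMIs to 3558 CPM at 1, and Irf7 stayed between 138 and 177 CPM.

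At a fixed depth of 5000 UMIs a cell the 4 markers outside the rule and Cd274 were again found in more members than comparison cells. A Gbp2 UMI was found in 79.4% of members and 29.4% of Cxcl9 0 cells, Cxcl10 in 42.9% and 13.6%, Ly6i in 46.5% and 11.1%, Slamf8 in 46.7% and 11.7%, and Cd274 in 59.2% and 22.9%. Ly6c2 was found in 74.6% and 70.4%, Irf7 in 43.2% and 39.5%, Rsad2 in 26.8% and 20.6%, and Isg15 in 72.4% and 45.2%. The unthinned shares were 94.5% and 50.2% for Gbp2 and 78.3% and 65.9% for Irf7.

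Among members, at the same depth, C1qa (a complement component of maturing macrophages) and Ly6c2 marked overlapping ranges. Of 583 members deep enough, 435 held Ly6c2 and 320 held C1qa. C1qa was found in 50.8% of the Ly6c2-positive members (46.1% to 55.5%) and in 66.9% of the others (59.0% to 74.0%). Mrc1 was found in 55.9% of C1qa-positive members (50.5% to 61.3%) and 24.3% of the others (19.5% to 29.9%), and these intervals, which cover counting error only, did not overlap.

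Cxcl9 was also found in resident macrophages, here cells with at least 2 UMIs of Lyve1 and Cd163 together that met the rest of the rule. Of 771, 27 held at least 2 Cxcl9 UMIs (3.50%, 2.42% to 5.05%), against 12.2% of the Lyve1 and Cd163 negative cells. Their median depth was 36331 UMIs, beside 15695 in resident cells with none. Of 7736 genes, 226 (2.92%) were at least 2-fold higher in the 27 cells, and no count over libraries was made. Side by side with the members, Gbp2 was 654 CPM in members and 625 CPM in the 27 cells, with 137 and 67.8 CPM in their counterparts without Cxcl9. The pooled values hide a spread between libraries: the GTPase sum of the resident cells with Cxcl9 was 262, 1536, 1543, 532 and 610 CPM in libraries 1, 3, 4, 5 and 6, with no such cell in library 2, and 1309 CPM in the pool, so that libraries 3 and 4 set the pooled level. H2-Aa was 4039 and 3362 CPM, with 1730 and 883 CPM in the counterparts, and Serpina3g was 89.0 and 69.5 CPM, with 5.85 and 0.842 CPM. Ly6i was 268 and 118 CPM, Ccl5 421 and 176 CPM, and Inhba 165 and 29.0 CPM. Nos2 was 32.6 CPM in members and 3.86 CPM in the 27 cells. Mrc1 was 952 CPM in the 27 cells, 1125 CPM in resident cells without Cxcl9 and 291 CPM in members. Folr2 was 221, 433 and 17.2 CPM and Pf4 1639, 2815 and 156 CPM in the same order. Both were thus lower in the 27 cells than in resident cells without Cxcl9 and higher than in members. The difference between the 2 kinds of Cxcl9-positive cell was not tested.

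**Figure D5:**
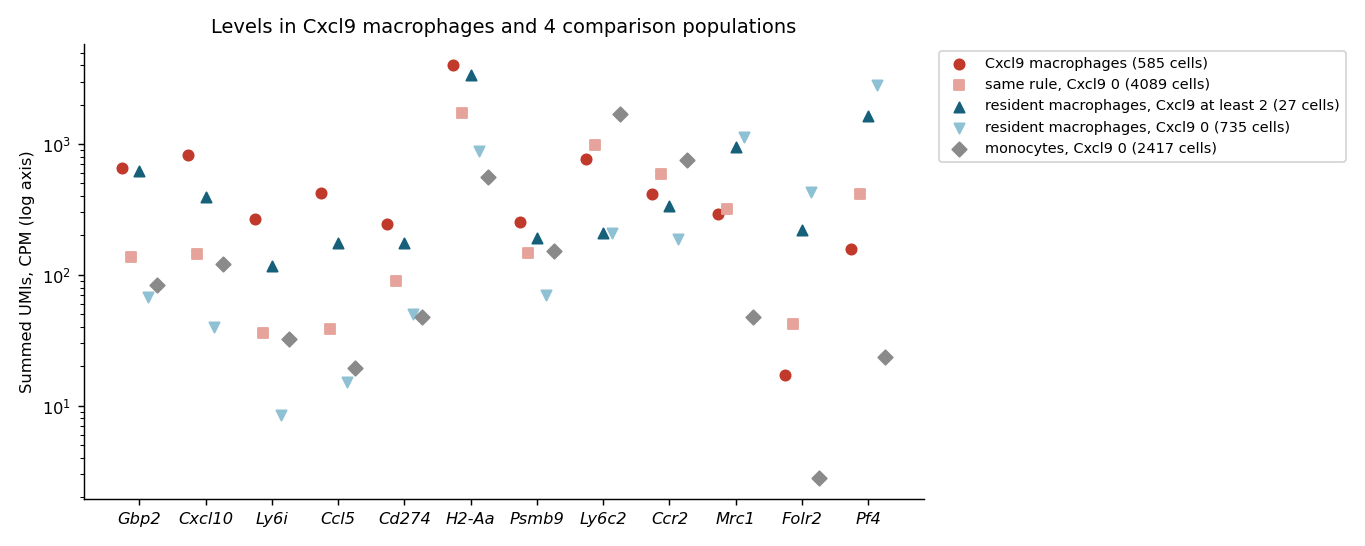
Summed UMIs (CPM, log axis) of 12 genes in Cxcl9 macrophages, the same macrophages without Cxcl9, resident macrophages with and without Cxcl9, and monocytes. Gbp2 was 654 and 625 CPM in the 2 Cxcl9-positive populations and 67.8 to 137 CPM in the 3 others; Folr2 and Pf4 were highest in the resident cells and Ly6c2, part of their definition, in the monocytes.

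Against the 735 resident macrophages without Cxcl9, 281 of 7676 genes were higher (3.66%) and 723 lower (9.42%). Here 7 of the 15 type I interferon genes were called higher (median log2 fold 0.94), among them Isg15 (4.27-fold), Rsad2 (3.21-fold) and Irf7 (2.56-fold), beside 10 of 11 GTPases (2.24), 7 of 7 class II genes (2.29) and 13 of 17 class I genes (1.38), with -0.11 over all genes. Lyve1 and Cd163 set these groups apart, and the 11 other resident genes were all lower, such as Folr2 (0.0397-fold). Against the 2417 monocytes without Cxcl9 (at least 3 UMIs of Ly6c2, Ccr2-positive, no C1qa, C1qb or C1qc), of which 1672 also belonged to the Cxcl9 0 macrophages, 228 of 7361 genes were higher (3.1%) and 201 lower (2.73%). There 10 of 11 GTPases and 7 of 7 class II genes were higher, and of the type I list Isg15 alone (2.14-fold). Il1b (2.09-fold) was called. Ly6c2 (0.447-fold), Chil3 (0.319-fold), Vcan (0.284-fold) and F13a1 (0.233-fold) were lower. These comparisons share the same members, so their calls are not independent of each other.

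Ifng, the inducer of Cxcl9, was found in T and NK cells, in which 295 of 2727 cells (10.8%, 9.71% to 12.0%) held a UMI at a median depth of 15562. It was in 2 of 585 members (0.342%), 69 of 5714 B cells (1.21%) and 12 of 8957 neutrophils (0.134%). In Cxcl9 0 macrophages it was in 7 of 4089 (0.171%, 0.083% to 0.353%), an interval that overlapped that of the members (0.0938% to 1.24%). By library, 19.6%, 14.0%, 12.0%, 11.7%, 5.99% and 9.57% of T and NK cells of libraries 1 to 6 held Ifng, beside members at 9.71%, 0.976%, 16.7%, 18.9%, 17.0% and 6.83% of the eligible macrophages. Library 2, with the fewest members, was next to the highest in Ifng, and library 5, with 17.0%, was lowest. T and NK cells were 7.64% to 9.46% of each library, and their depth differed between libraries, from a median of 9176 in library 3 to 22100 in library 6. Cxcr3, the receptor of CXCL9 and CXCL10, was in 15.8% of T and NK cells (14.5% to 17.2%), 1.71% of members and 0.346% of neutrophils, with 26.9%, 18.7%, 24.6%, 17.6%, 10.1% and 11.3% of T and NK cells in libraries 1 to 6.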

How the data were processed

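CD45+ synovial cells of 6 samples were profiled with Chromium 3′ chemistry. Per the labels and the methods of the study, the authors aligned reads to mm10 with Cell Ranger (version 7 in the submitters' processing notes), removed ambient RNA with SoupX and doublets with DoubletFinder, filtered cells with Seurat and deposited 1 table of whole UMI counts, pooled over samples and not scaled for depth, with 20394 genes and 32953 cells. It stores 1724738 zeros, read as entries that the ambient correction emptied. No doublet caller was rerun. Of the members, 39 (6.67%) were among the 2% of cells with most UMIs, as were 2.59% of the Cxcl9 0 macrophages.

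Counts were summed over the cells of a population and library and divided by the total (CPM). Genes needed a mean of at least 10 CPM over the 2 populations, and a sum of 0 was set to 3 counts before a fold was taken. No test was run, since libraries of unknown treatment are not replicates, and the planned comparison of vehicle and PEPITEM was left out. Wilson and exact Poisson 95% intervals cover counting error only. For shares at fixed depth, cells were drawn down to 5000 UMIs, which left out 2 members and 57 Cxcl9 0 cells. Lists, populations and the naming rule (genes of the lists, the 25 highest and 15 lowest called folds, and the genes of the rule) and the members were chosen with earlier results of these data known. Acod1 and Selenop were read under their older symbols, and Cxcl11 and Mx2 were not found. Some genes of the lists are not reported here. The calling step was run on simulated counts drawn from the pooled profile of the Cxcl9 0 cells, the same for each library. Real libraries differed in level, so the simulation checks the code and not the error of the calls. Coordinates came from GENCODE for GRCm38, the mm10 assembly. Computation used pandas 2.3.3 and numpy 2.4.6 in Python 3.11.15, with intervals from scipy 1.17.1 and plots from matplotlib 3.10.9.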

Additional observations from a re-analysis of the deposited data

How the results depend on the processing

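The share of Cxcl9 macrophages among all cells (1.78%) and among eligible cells (12.2%) was 2.20% and 15.04% with at least 1 Cxcl9 UMI, 1.59% and 10.9% with at least 3, 1.41% and 9.66% with at least 5, and 1.08% and 9.93% when the rule was applied to cells thinned to 5000 UMIs. It was 2.05% and 13.2% as the median over libraries, and 10.9% of eligible cells without the condition on Lyve1 and Cd163. Leaving out 1 library at a time gave 1.47% to 2.13% and 10.9% to 13.8%. Of genes, 87 higher and 66 lower became 54 and 23 at a minimum of 50 CPM, where fewer genes were compared. Without a minimum, 393 were lower. Without cells that carried markers of T cells, B cells, neutrophils or fibroblasts, which left 322 members (2 of them in library 2), 125 were lower, of which 49 were among the 66, and against Cxcl9 0 cells with C1q, an alternative chosen once the data were known, 107 were lower. The cause of these last differences was not tested. Leaving out 1 library gave 76 to 98 higher and 55 to 99 lower genes, the last without library 3. Without library 2, 97 were higher, of which 72 were among the 87. The folds of Cxcl10, Gbp2, Ly6i and Slamf8 do not depend on the minimum. Over the other alternatives they ranged over 4.98 to 7.10, 4.03 to 5.87, 6.44 to 9.63 and 4.12 to 5.86.

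No paired analysis was possible because the barcode numbers are not tied to samples or replicate numbers. Depth limits the scarce transcripts, and library 2 contributed 6 members.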
